A study of Homo sapiens with 10 samples.

Results

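The genes described here encode developmental transcription factors of the homeobox and paired-box families outside the HOX clusters. Every protein-coding gene of GENCODE release 44 was taken whose symbol is LHX, NKX, DLX, IRX, MSX, PITX, OTX, POU or PAX followed by a digit, together with the sine oculis homeobox family of SIX2 and SIX3 and without PAX8. That rule, which uses names and no measured value, found 74 of 19962 protein-coding genes. They comprised 19 POU, 14 NKX, 8 LHX, 8 PAX, 6 DLX and 6 IRX genes, 6 sine oculis genes, and 3 PITX, 2 MSX and 2 OTX genes. The POU2AF1, POU2AF2 and POU2AF3 genes match by symbol but encode coactivators of POU factors rather than homeodomain proteins. At the promoters of all 74 genes the occupancy of Rb, the retinoblastoma tumour suppressor, was read from CUT&RUN peak lists. CUT&RUN maps a chromatin protein by directing a nuclease to it with an antibody and sequencing the fragments that are cut free.

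The cells, OVCAR-3 and Kuramochi, are cancer lines of high-grade serous ovarian origin whose genotype is given as wild type, and both were kept for 2 days in 300 nM of the CDK2 inhibitor INX-315 or in its solvent DMSO. For either treatment of either line 2 libraries were made with an Rb antibody, and 1 library per line was made from the solvent-treated cells with the control antibody IgG2a. The replicates were separate cultures per the study's methods. The comparison addresses whether blocking CDK2, a kinase that phosphorylates and thereby inactivates Rb, changes where Rb sits on chromatin. Depth of the Rb libraries, recovered from the peak lists as the genome-wide mean fragment coverage per base, was lowest in replicate 2 of Kuramochi INX-315, at 0.216, and highest in replicate 2 of OVCAR-3 DMSO, at 0.501. The Rb lists held 5221 to 8794 peaks under DMSO and 13031 to 17281 under INX-315, so a gene had more peaks to meet under the inhibitor. No member had a promoter peak in either IgG2a library.

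Homeodomain and paired-domain proteins bind DNA in a sequence-specific way and set the identity of tissues in the embryo, among them the eye and brain (PAX6, OTX1, SIX3), limb and face (DLX, MSX1), kidney (PAX2, SIX2) and endocrine pancreas (NKX6-1). Most of these genes are used in few tissues, and in other cells their CpG-rich promoters are commonly kept silent by Polycomb complexes. Rb has no sequence-specific DNA-binding domain and reaches promoters through partner proteins, best known among them the E2F factors at cell cycle genes.

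Sequences under some of the highest summits are given as examples of the DNA these peaks sat on. They are 100 bases of the plus strand of hg38 centred on the summit, for the members with the highest mean rank of fold enrichment among those with a peak in every Rb library (POU2F1, OTX1, NKX6-1) and among those gained in both lines (LHX6, MSX1), leaving out PAX9, whose window overlaps an untranslated part of an exon. Capitals mark CCAAT boxes (CCAAT or ATTGG), and no other searched motif fell in them.
POU2F1 chr1:167220575-167220674: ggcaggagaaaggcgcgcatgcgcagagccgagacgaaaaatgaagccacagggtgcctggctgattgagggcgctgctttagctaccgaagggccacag
OTX1 chr2:63050212-63050311: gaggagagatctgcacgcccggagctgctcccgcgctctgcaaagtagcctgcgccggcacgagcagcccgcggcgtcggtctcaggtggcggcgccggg
NKX6-1 chr4:84499427-84499526: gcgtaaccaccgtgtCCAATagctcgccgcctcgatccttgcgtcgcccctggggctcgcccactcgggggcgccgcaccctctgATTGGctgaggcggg
LHX6 chr9:122213946-122214045: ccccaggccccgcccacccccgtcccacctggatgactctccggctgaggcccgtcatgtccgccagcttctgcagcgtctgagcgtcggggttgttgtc
MSX1 chr4:4859502-4859601: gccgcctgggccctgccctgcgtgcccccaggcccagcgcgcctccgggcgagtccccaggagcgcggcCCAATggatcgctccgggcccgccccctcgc
These windows held 7 to 14 CpG each, and their GC content was 61.0% at POU2F1, 74% at OTX1, 71.0% at NKX6-1, 70.0% at LHX6 and 82.0% at MSX1. Windows of the same classes that are not printed went beyond these ranges. They held 0 CpG at SIX2, 5 at PAX9 and 15 at SIX5, and GC content was 51% at PAX6 and 55% at PAX9. The POU2F1, NKX6-1 and MSX1 summits lay outside the gene, at −251, −185 and −113 bp from its nearest start, negative values being upstream. The OTX1 summit lay in an intron and the LHX6 summit in a coding exon, each close to an annotated start of the gene. LHX4, a LIM-homeodomain factor of the pituitary and motor neurons, had an E2F consensus within 100 bp of its highest summit. Of the 46 members with a peak 2 did (4.35%), against 4.21% of 13728 gene promoters. The LHX4 summit lay in an intron, 933 bp downstream of the nearest start of the gene. A window centred on the match carries it in capitals.
LHX4 chr1:180231120-180231219: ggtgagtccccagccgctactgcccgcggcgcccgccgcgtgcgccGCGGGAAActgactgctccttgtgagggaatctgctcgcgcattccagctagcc

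A promoter was taken as 2000 bp upstream to 500 bp downstream of any transcript start of the gene, and a peak counted when it overlapped it by at least 1 bp. Of the 74 members, 46 had a promoter peak in at least 1 of the 8 Rb libraries and 28 in none. For all protein-coding genes the share without any peak was 31.2%, against 37.8% of the members. POU2F1, OTX1, NKX6-1, PAX6, IRX5, SIX2, LHX2, DLX1, SIX5 and IRX3 had a peak in all 8 libraries, which is 13.5% of the members against 18.8% of all protein-coding genes. The other 36 were called in 1 to 7 libraries.

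The counts of called members by family are small, and differences between families were not tested. Over all protein-coding genes 68.8% had a peak in at least 1 library. All 6 DLX genes, all 3 PITX genes and both MSX genes had a peak in at least 1 library, as did 5 of the 6 sine oculis genes, 6 of the 8 LHX genes and 4 of the 6 IRX genes. Only 8 of 19 POU, 7 of 14 NKX and 4 of 8 PAX genes did, and of the OTX pair only OTX1. The uncalled POU genes include the coactivator genes POU2AF1, POU2AF2 and POU2AF3. The 28 members without a peak in any library were IRX1, IRX2, LHX5, LHX8, NKX1-1, NKX2-2, NKX2-3, NKX2-4, NKX2-5, NKX2-6, NKX6-3, OTX2, PAX1, PAX3, PAX4, PAX7, POU1F1, POU2AF1, POU2AF2, POU2AF3, POU2F3, POU3F3, POU3F4, POU4F3, POU5F1, POU5F1B, POU5F2 and SIX6. They include the heart factor NKX2-5, the pituitary factor POU1F1, the muscle precursor factors PAX3 and PAX7 and the pluripotency factor POU5F1.

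**Figure D1:**
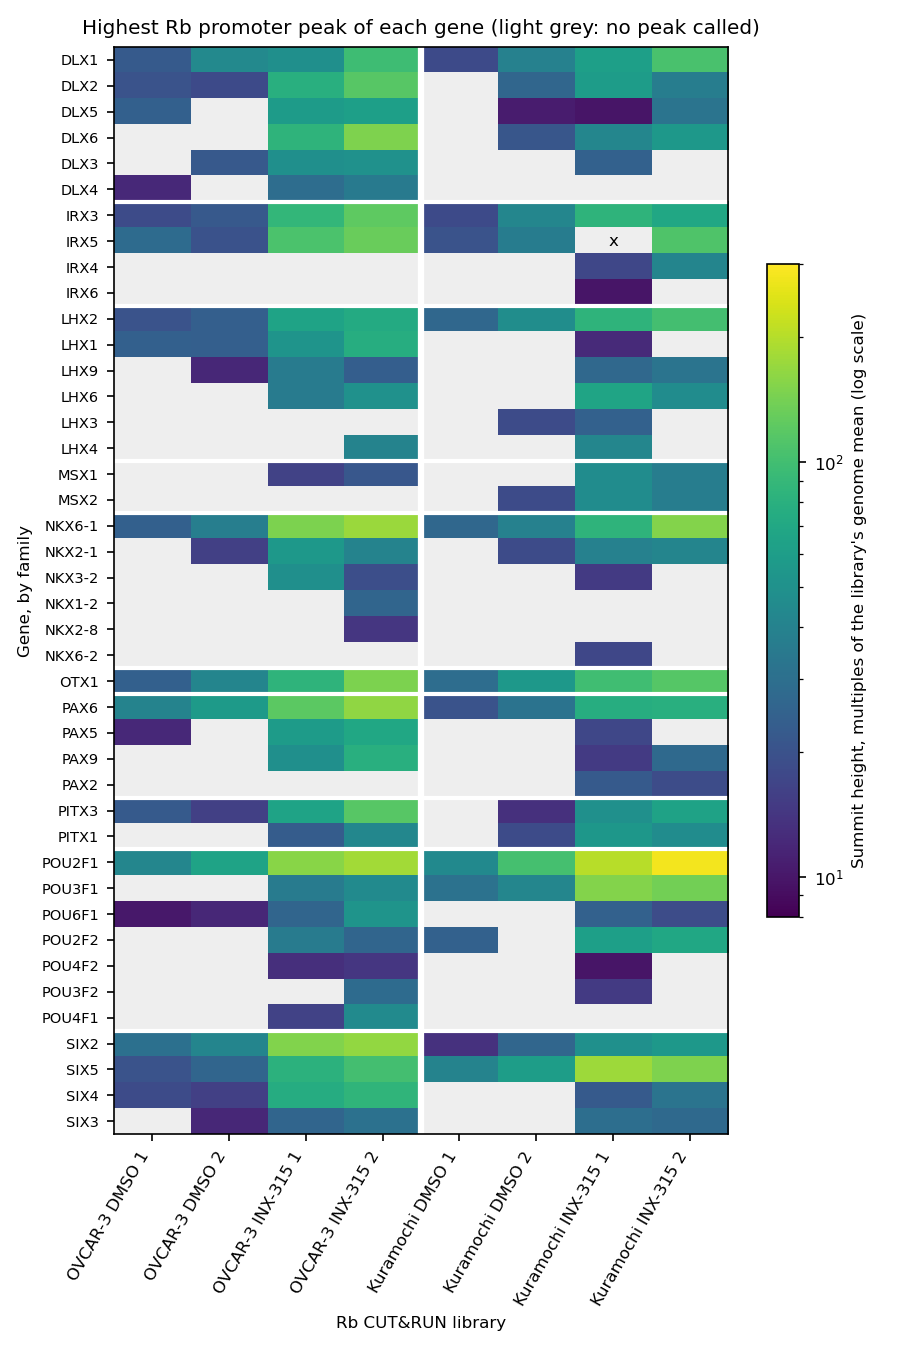
Height of the Rb promoter peak with the greatest fold enrichment, for 42 of the 46 members with a peak in at least 1 library (rows, by family). The columns are the 8 Rb libraries, and the logarithmic colour scale is in multiples of the library's genome mean. Light grey is no peak called and x is a peak whose fragments could not be recovered. POU2F1 reached 283 in Kuramochi INX-315 replicate 2, and most of the grey cells lie in the DMSO columns.

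In OVCAR-3, 20 and 21 members had a promoter peak with DMSO, as against 34 and 39 with INX-315. The Kuramochi libraries gave 13 and 20 members with DMSO, as against 41 and 30 with INX-315. Both inhibitor libraries exceeded both DMSO libraries in each line. The mean difference between treatments was 17.5 members (OVCAR-3 16, Kuramochi 19), and an exact two-sided permutation test within lines gave p = 0.0556, the smallest value that 36 arrangements allow. With every list of a line shortened to the same number of peaks the difference was 2.25 members (exact permutation p = 0.333), so the count moved with the length of the lists.

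As shares of the 74 genes these counts were 27.0% and 28.4%, then 45.9% and 52.7% in OVCAR-3, and 17.6% and 27.0%, then 55.4% and 40.5% in Kuramochi. All protein-coding genes stood at 30.1% and 37.0%, then 56.0% and 64.9% in OVCAR-3, and at 26.3% and 39.0%, then 59.8% and 55.3% in Kuramochi. The members were thus below the whole genome in all 8 libraries. The ratio of the member share to the genome share ranged from 0.667 to 0.926, and its mean was 0.067 higher under INX-315, which the spread between libraries could not separate from 0 (exact two-sided permutation within lines, p = 0.444).

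**Figure D2:**
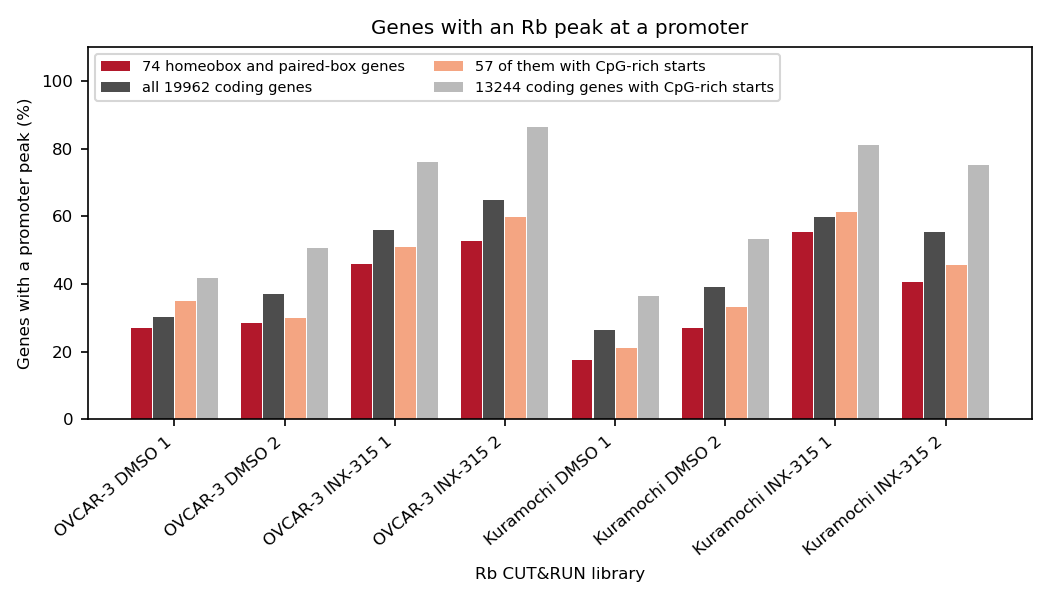
Share of genes with an Rb promoter peak in each of the 8 Rb libraries (bars, in percent), for the 74 members, all 19962 protein-coding genes and the subsets whose start is CpG-rich. The bar of the members is below that of all genes in every library, and the bar of the 57 members with CpG-rich starts is below that of the 13244 such genes.

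A gene was called bound under a treatment when both replicates had a promoter peak. The peaks of the replicates need not lie at the same site. In OVCAR-3 17 members were bound under DMSO (23%, background 26.8% of all genes) and 34 under INX-315 (45.9%, background 55.5%). In Kuramochi 11 were bound under DMSO (14.9%, background 24.9%) and 30 under INX-315 (40.5%, background 53.2%). Every member bound under DMSO was also bound under INX-315 in its line. So were 5332 of the 5352 genes bound under DMSO in OVCAR-3 and 4952 of 4961 in Kuramochi.

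A promoter counted as gained when it had a peak in each library of the inhibitor and in no DMSO library of the line. In OVCAR-3 10 members were gained (13.5%, background 16.2%), namely DLX6, LHX6, MSX1, NKX3-2, PAX9, PITX1, POU2F2, POU3F1, POU4F1 and POU4F2. In Kuramochi 9 were gained (12.2%, background 14.0%), namely IRX4, LHX6, LHX9, MSX1, PAX2, PAX9, POU6F1, SIX3 and SIX4. No member was lost in either line, where 0.00501% of all genes were lost in OVCAR-3 and 0.0150% in Kuramochi. With 2 libraries a group, presence and absence carry no test for a single gene, and with lists of equal length 2 members were gained in OVCAR-3 (2.33% of all genes) and 1 in Kuramochi (2.03%). Without INX-315 replicate 2, 19 members were gained in Kuramochi (25.7%, background 19.9%), so that there the members stood above all genes. Without DMSO replicate 2, 17 were gained in that line (23%, background 27.0%).

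LHX6, PAX9 and MSX1 were gained in both lines (4.05% of the members, background 5.56%). LHX6 is a LIM-homeodomain factor of forebrain interneurons, PAX9 a paired-box factor of teeth and pharyngeal pouches, and MSX1 a homeodomain factor of teeth and craniofacial tissue. The height of a summit is given from here on as a multiple of the library's genome-wide mean fragment coverage. Where a gene had several promoter peaks in a library, the peak with the greatest fold enrichment was taken. That peak need not be at the same site in each library. LHX6 had no peak in the 4 DMSO libraries, and with INX-315 its heights were 35.9 and 49.9 in OVCAR-3 as against 66.7 and 46.3 in Kuramochi. PAX9 stood at 48.9 and 78.5 in INX-315-treated OVCAR-3 and at 14.8 and 27.8 in Kuramochi treated alike. MSX1 stood at 16.3 and 21.4 in OVCAR-3 and at 46.9 and 37.1 in Kuramochi. Within the inhibitor-treated libraries, PAX9 was thus higher in both OVCAR-3 libraries than in both of Kuramochi and MSX1 the reverse, a difference that was not tested. The summits rested on few fragments, 10 to 27 at LHX6, 6 to 33 at PAX9 and 5 to 19 at MSX1.

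POU3F1, POU6F1 and SIX4 were gained in one line and called in all 4 libraries of the other. POU3F1, a POU factor of myelinating glia, had heights of 31.5 and 42.1 with DMSO and 153 and 139 with the inhibitor in Kuramochi, whereas in OVCAR-3 it had peaks of 35.9 and 45.2 only under INX-315. SIX4, a factor of muscle and kidney development, stood at 18.2 and 16 with DMSO and 75 and 85.6 with the inhibitor in OVCAR-3, and at 22.2 and 32.4 under INX-315 in Kuramochi. Its OVCAR-3 summits did not mark a common site. They lay at chr14:60724266 and 60723505 with DMSO and at 60724301 and 60721910 with the inhibitor. The last was in an intron, 1255 bp downstream of the nearest start, in a wide peak at 60721455-60724615. POU6F1, a POU factor of the nervous system, was lower throughout, at 10.1 and 12.0 with DMSO and 26.1 and 52.3 with the inhibitor in OVCAR-3, and at 24.7 and 18.5 under INX-315 in Kuramochi. In each of the 3 genes the line without a DMSO peak also had the lower heights under the inhibitor.

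Among the 10 members with a peak in every library, POU2F1 had the highest summits. POU2F1 encodes OCT1, which is expressed in most tissues. Its heights were 42.4 and 65.8 with DMSO and 157 and 181 with the inhibitor in OVCAR-3, and 44.9 and 103 against 203 and 283 in Kuramochi. In each line both inhibitor values lay above both DMSO values. So they did at 99.2% of genes with a height in all 4 libraries in OVCAR-3 and at 97.3% in Kuramochi. Its mean percentile rank among the peaks of a list was 94.5, and OTX1 followed at 82.8.

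OTX1, a paired-like factor of the forebrain, stood at 24.3 and 41.9 with DMSO and 84.8 and 147 with the inhibitor in OVCAR-3, and at 29.2 and 55.3 against 98.8 and 116 in Kuramochi. NKX6-1, a factor of pancreatic beta cells and the ventral spinal cord, stood at 24.3 and 37.9 against 147 and 174 in OVCAR-3, and at 27.0 and 39.5 against 84.0 and 153 in Kuramochi. PAX6, the paired-box factor of the eye, stood at 40.4 and 57.8 against 121 and 164 in OVCAR-3, and at 20.2 and 31.6 against 76.6 and 78.7 in Kuramochi. At each of these 3 genes the treatments did not overlap in either line, as at 99.2% (OVCAR-3) and 97.3% (Kuramochi) of genes so measured. PAX6 was higher in OVCAR-3 than in Kuramochi in both treatments.

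IRX5 and IRX3 are Iroquois factors of the heart, limb and nervous system. IRX5 stood at 28.3 and 19.9 with DMSO and 108 and 131 with the inhibitor in OVCAR-3, and at 20.2 and 36.9 under DMSO and 111 in INX-315 replicate 2 of Kuramochi, the other INX-315 library having a peak without a recovered fragment number. IRX3 stood at 18.2 and 21.9 against 88.1 and 121 in OVCAR-3 and at 18.0 and 42.1 against 84.0 and 69.5 in Kuramochi. The recovered values of the treatments did not overlap at either gene, as at nearly all measured genes (99.2% in OVCAR-3, 97.3% in Kuramochi). SIX2, which maintains nephron progenitors, stood at 30.3 and 41.9 against 150.1 and 166 in OVCAR-3 and at 13.5 and 26.3 against 49.4 and 55.6 in Kuramochi. SIX5 stood at 20.2 and 25.9 against 81.6 and 102 in OVCAR-3 and at 40.4 and 60.6 against 175 and 148 in Kuramochi. SIX2 and SIX5 were ordered oppositely in the lines, SIX2 being the higher in all 4 OVCAR-3 libraries and the lower in all 4 of Kuramochi. Height is not scaled to local background. At SIX5 that was 4.69, 4.24 and 3.35 times the genome mean in Kuramochi DMSO 1, DMSO 2 and INX-315 1, and 3.19 in OVCAR-3 DMSO 1. The part of background in this order was not tested.

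LHX2, a LIM-homeodomain factor of the eye, forebrain and hair follicle, stood at 20.2 and 23.9 against 65.3 and 73.7 in OVCAR-3 and at 27.0 and 47.4 against 84.0 and 102 in Kuramochi. DLX1, a distal-less factor of forebrain interneurons, stood at 22.2 and 43.9 against 48.9 and 97.5 in OVCAR-3 and at 18.0 and 39.5 against 61.7 and 107 in Kuramochi. DLX1 had the narrowest gap between treatments of the group in OVCAR-3. Across the 46 called members the peaks rested on 4 to 82 fragments at the summit, and a count of 4 has an exact 95% Poisson interval of 1.09 to 10.2, which covers counting error only. In OVCAR-3, peaks of at most 10 fragments made up 10 of 20 and 8 of 21 member peaks with DMSO and 7 of 34 and 5 of 39 with the inhibitor. In Kuramochi they made up 6 of 13 and 10 of 20 with DMSO and 16 of 41 and 15 of 30 with the inhibitor, so that absence in a library can mean a signal just under the caller's threshold.

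Heights were tested with limma in each line over every gene with a promoter peak and a recovered height in all 4 libraries, with Benjamini-Hochberg adjustment over all of them. In OVCAR-3 17 of the 74 members met that requirement, and all 17 rose under INX-315 (limma, adjusted p from 8.26e-08 to 0.006), where 97.9% of the 5194 genes tested were called higher. Among them were DLX1, DLX2, IRX3, IRX5, LHX1, LHX2, NKX6-1, OTX1, PAX6, PITX3, POU2F1, POU6F1, SIX2, SIX4 and SIX5. Both INX-315 heights exceeded both DMSO heights at all 17, as at 99.2% of the tested genes. In Kuramochi 10 members met the requirement, and all 10 rose (limma, adjusted p from 1.35e-05 to 0.00164), where 92.9% of 4814 genes were called higher. They were DLX1, IRX3, LHX2, NKX6-1, OTX1, PAX6, POU2F1, POU3F1, SIX2 and SIX5, and their treatments were separated as at 97.3% of the tested genes.

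The members rose by about as much as the other tested genes. The median log2 change in height was 2.09 over the 17 members and 1.78 over all tested genes in OVCAR-3, and 1.61 over the 10 members and 1.5 over all tested genes in Kuramochi. NKX6-1 had the largest change of the members in OVCAR-3, log2 2.40 ± 0.41 (SE, n = 2 per treatment), and DLX1 the smallest, 1.15 ± 0.41. In Kuramochi POU3F1 had the largest, 2.00 ± 0.42, and LHX2 the smallest, 1.37 ± 0.42. limma's moderated errors came out the same for all genes of a line, so these members cannot be ordered beyond that error. The adjusted p-values rest on that common error, whatever the fragment number at a summit. When each library was centred on the median of the tested genes, no member was called by limma in either line (unadjusted p under 0.05 at 1 member in OVCAR-3 and 0 in Kuramochi), against 64 and 0 of all tested genes. The peak lists carry no spike-in, and a shift common to all genes cannot be told apart from a difference in enrichment between libraries.

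**Figure D3:**
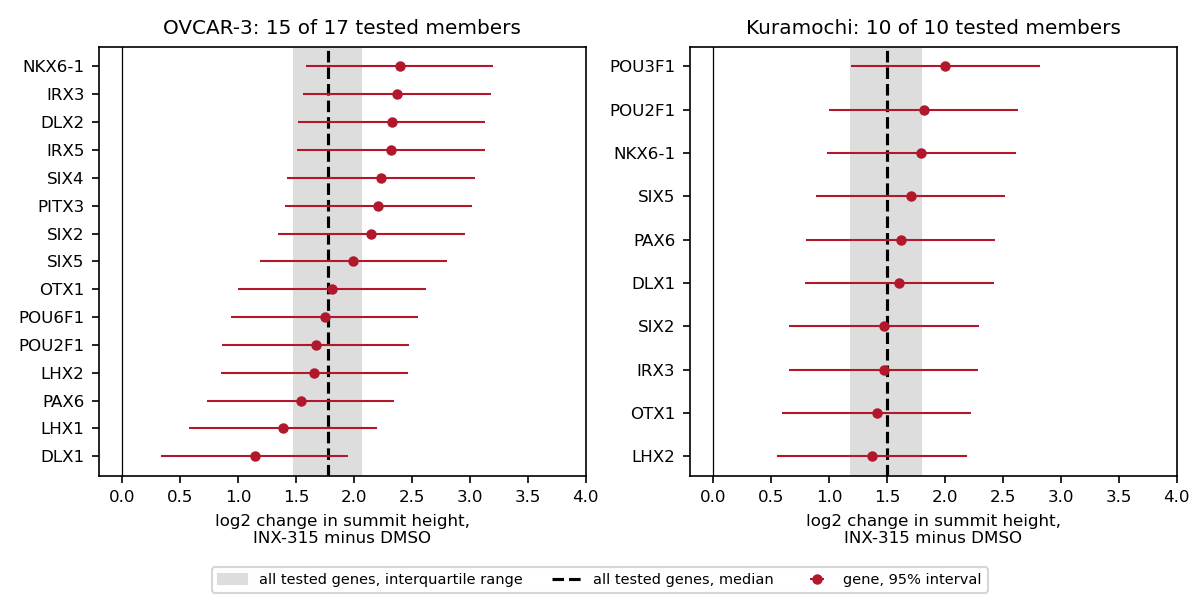
log2 change in Rb summit height under INX-315 against DMSO (x axis) for 15 of the 17 tested members in OVCAR-3 and all 10 in Kuramochi (y axis), with the 95% interval from limma. The dashed line is the median of all tested genes, 1.78 (OVCAR-3) or 1.5 (Kuramochi), and the grey band their interquartile range. Every interval shown lies above 0 and includes the dashed line.

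Whether the change differed between lines was tested by a limma interaction over the 3532 genes with a height in all 8 libraries, of which 9 were members. No member was called, nor was any other gene (0.00% of those tested), and at an unadjusted p under 0.05 there were 0 members and 127 genes. The difference in log2 change, Kuramochi minus OVCAR-3, ran from −0.90 at IRX3 (95% interval −2.04 to 0.24) to 0.46 at DLX1 (95% interval −0.68 to 1.60). Those intervals leave room for sizeable differences in either direction.

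The other called members stood lower or in fewer libraries. Among the DLX genes, DLX2 lacked a peak only in Kuramochi DMSO replicate 1 and reached 117 in OVCAR-3 INX-315 replicate 2. DLX6 had no DMSO peak in OVCAR-3 and stood at 84.8 and 149.8 there with INX-315, the highest of any gained member in that line. DLX5, its neighbour on chromosome 7, reached 61.8. The PITX genes act in pituitary, limb and lens development, and PITX3 had a peak in 7 libraries, with up to 117.

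NKX2-1, the thyroid and lung factor, was called in 6 libraries with 16 to 55.5. PAX2, a paired-box factor of kidney and the reproductive tract, was called only in the Kuramochi INX-315 libraries, at 22.2 and 18.5 on 9 and 4 fragments. Its summits there lay at chr10:100745548 in replicate 1 and 100744646 in replicate 2. The peak of replicate 1 spanned 100745391-100745700, so the replicates marked different sites. PAX5, the B cell factor, was called in 4 libraries with up to 69.0. At the low end, IRX6, NKX1-2, NKX2-8 and NKX6-2 were each called in 1 library, on 4 to 11 fragments.

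The summits mostly sat close to the starts of the genes. For each of the 46 members the highest summit over all libraries was placed on the annotation. Of these summits 17 lay outside the gene, 15 in an intron, 9 in an untranslated part of an exon and 5 in a coding exon. At 38 members the summit was within 500 bp of a start of the gene itself, and the median distance was 202.5 bp. At 3 members it lay downstream of the promoter, which the peak only overlapped. These were PAX6 at 710 bp (618 to 822 bp over the 8 libraries), LHX4 at 933 bp and SIX4 at 1255 bp. With summits required inside the promoter, 8 members in place of 10 had a peak in all 8 libraries. At 8 members the start of another gene was nearer, none of it coding, among them CRNDE at 52 bp from the IRX5 summit and POU2F1-DT at 37 bp from that of POU2F1, and a peak there cannot be assigned to one of the genes. No best peak was shared by members.

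CpG density differed between called and uncalled members, but less than among other genes. Within 500 bp of the canonical start the median number of CpG was 87.5 in the 10 members called in all 8 libraries, 77.5 in the 36 called in 1 to 7, and 58 in the 28 called in none. Over all protein-coding genes the same medians were 84, 77 and 18. IRX1, IRX2 and NKX1-1 had 138, 144 and 149 CpG and no peak in any library. The uncalled members were thus far richer in CpG than the uncalled genes as a whole.

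An observed over expected CpG ratio above 0.6 marked 57 members and 13244 genes as CpG-rich. Of these 57, 17 had no peak in any Rb library (29.8%), against 9.47% of the 13244 genes. In the OVCAR-3 INX-315 libraries 50.9% and 59.6% of the CpG-rich members had a peak, against 76.1% and 86.5% of CpG-rich genes. In the Kuramochi INX-315 libraries the shares were 61.4% and 45.6% against 81.0% and 75.1%. The gap was therefore wider among CpG-rich starts than over all genes, in the same direction in all 8 libraries. The members also had fewer annotated starts to meet, a median of 3 transcripts against 6 over all genes, and the part of that in the gap was not tested.

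**Figure D4:**
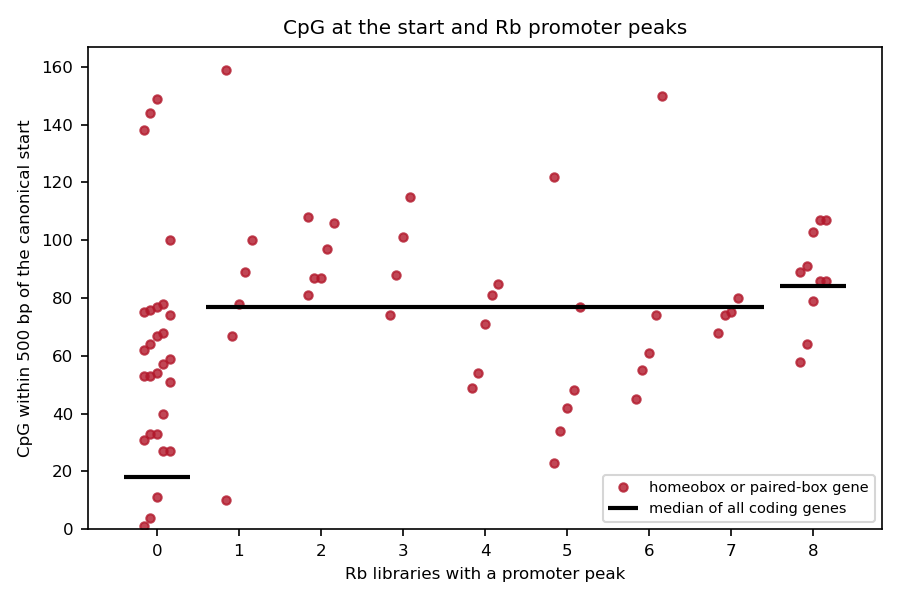
CpG number within 500 bp of the canonical start (y axis) against the number of Rb libraries with a promoter peak (x axis) for the 74 members (points, spread sideways for legibility). Black lines are the medians of all protein-coding genes called in no library, in 1 to 7 and in all 8, at 18, 77 and 84. The points without a peak mostly lie above the line of 18.

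Motifs were sought on both strands in 200 bp around the highest summit. The E2F consensus (TTTCCCGC, TTTCGCGC, TTTGCCGC or TTTGGCGC) was found in 2 of 46 members, LHX4 and POU6F1 (4.35%), and in 4.21% of 13728 gene promoters with a recovered peak height. In a comparison list of 40 cell cycle genes regulated by E2F it was found in 14 (35.0%). The cell cycle homology element CHR (TTTGAA) was found in 1 member, PAX5 (2.17%), against 3.59% of promoters. The core TAATTA, which many homeodomains bind, was found in 2 members, DLX2 and PAX6, against 0.503% of promoters. The CCAAT box was found in 7 members (15.2%) against 19.1%, with 3 copies at POU3F1 and 2 each at NKX6-1 and MSX1, and none of these letters says that a factor was bound. RefSeq promoters, 250 bases before to 50 after the start, matched 50 of the 74 members and gave the opposite order for each of the 4 motifs, by less than 1 percentage point at the E2F consensus. There the E2F consensus was held by 2 members (4%, against 4.50% of 15316 promoters), the CCAAT box by 27 (54.0% against 36.6%), CHR by 8 (16% against 12.1%) and TAATTA by 1 (2.0% against 3.28%).

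Outside promoters the order of members and genome was the reverse. Peaks that touched no promoter of any annotated gene were counted when they lay in a gene or within 10 kb of it. A site beside a promoter could be counted here in one library and, in a wider peak, at the promoter in another, as at LHX4 and SIX4. The part of this in the order of members and genome was not tested. In OVCAR-3 7 and 9 members had such a peak under DMSO (9.46% and 12.2%) and 8 and 21 under INX-315 (10.8% and 28.4%). The Kuramochi counts were 3 and 7 under DMSO (4.05% and 9.46%) and 16 and 14 under INX-315 (21.6% and 18.9%). Over all protein-coding genes the shares ran from 1.56% to 11.2% and were lower than those of the members in each library. The sequence searched, a gene with its 10 kb flanks and without any promoter, had a median of 21057 bp for members and 35065.5 bp over all genes.

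In all, 33 of the 74 members had such a peak in at least 1 library (44.6%, against 21.9% of all genes), and 6 of them, among them PAX3 and NKX2-5, had no promoter peak. PITX3 had one in all 8 libraries, around chr10:102229870-102231685 as called in OVCAR-3 INX-315 replicate 2. It stood at 36.4 and 29.9 with DMSO and 101 and 159 with the inhibitor in OVCAR-3. In Kuramochi it stood at 13.5 and 18.4 with DMSO and at 46.9 and 46.3 with the inhibitor. The PITX3 site was higher under INX-315 in both lines and higher in OVCAR-3 than in Kuramochi within each treatment.

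NKX2-1 had a site at chr14:36524794-36525741 in all 4 OVCAR-3 libraries, at 20.2 and 17.9 with DMSO and 58.7 and 121 with the inhibitor, and no such peak in Kuramochi. Between DLX5 and DLX6 a site at chr7:97016173-97017324 was counted for both genes, and DLX1 and DLX2 shared peaks in the same way, so up to 2 peaks in a library were counted for a pair of members. A site near a gene need not act on it.

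**Figure D5:**
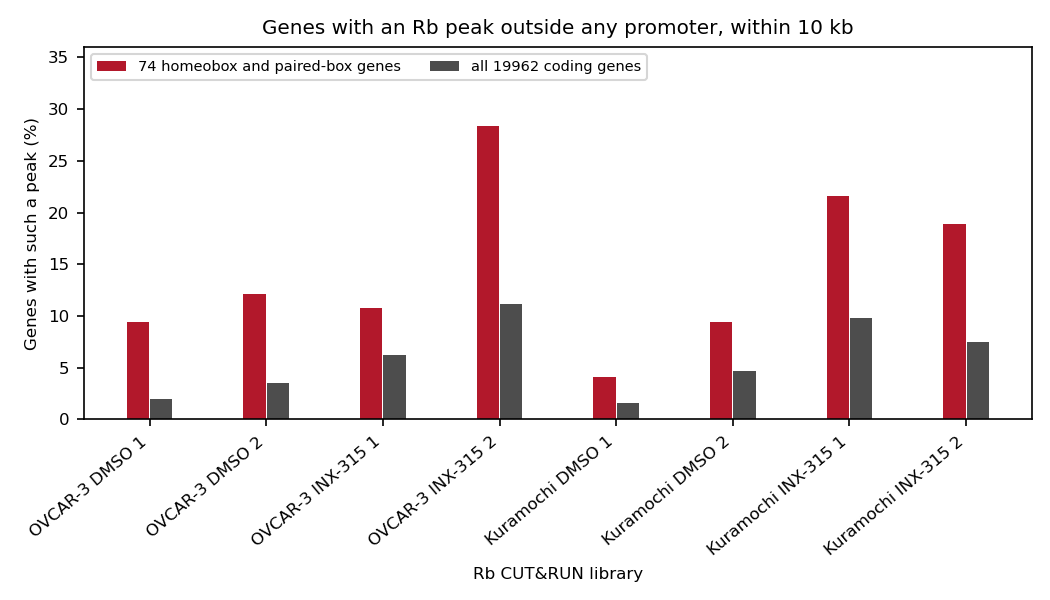
Share of genes with an Rb peak inside the gene or within 10 kb of it that touches no promoter (bars, in percent) in each of the 8 Rb libraries, for the 74 members and all 19962 protein-coding genes. The members reach 28.4% in OVCAR-3 INX-315 replicate 2, where all genes are at 11.2%.

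Other gene lists were read in the same way, by counts. The 66 developmental homeobox genes of other names had a peak in all 8 libraries at 6 (9.09%) and in none at 26 (39.4%), and 4 were gained in both lines. Of 25 genes for cofactors of homeobox and paired-box proteins, 6 were called in all 8 libraries (24.0%) and 4 in none (16%). The 40 cell cycle genes were called in all 8 libraries at 38 (95%), and their median log2 change in height was 1.41 in OVCAR-3 and 1.17 in Kuramochi, below the medians of the tested homeobox and paired-box members. Their heights started higher, with a median of 51.5 in OVCAR-3 DMSO replicate 1 against 21.2 for the homeobox and paired-box members called there.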

How the data were processed

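Reads were trimmed and aligned by the authors to hg38 with Bowtie2 2.3.4.1 and peaks were called per library with MACS2 2.2.7.1 against the IgG2a library of the line. The deposited lists give each peak's position and summit, a fold enrichment (a linear ratio to local background), the −log10 p-value and the −log10 q-value of the authors' caller, and the caller's integer score, which was not used. Whole fragments at the summit were recovered from fold enrichment and p-value (relative tolerance 3e-05, −log10 p below 290) for at least 98.6% of Rb peaks, and height is fragments divided by the library's lowest background, its genome mean. Duplicates were kept by the authors, so fragments are not all independent molecules.

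Members and gene lists were chosen with earlier results of these data known. Genes named with values in each library were those in all 8 Rb libraries, gained in both lines, or gained in one line and in all 4 libraries of the other, and further members were picked to illustrate the families after their values were seen. Presence was compared by exact permutation within lines and log2 height by limma 3.58.1 (R 4.3.3), checked on simulated heights. The study's differential test on read counts was not used here. The replicates did not deviate together by number (correlations −0.055 and 0.002). Alternatives were a q-value of at most 0.001, summits inside the promoter, canonical starts, lists of equal length, fold enrichment for height, median-centred libraries, a replicate block and leaving out each library. Sequences and CpG were read from hg38, promoters from RefSeq. Members counted in the totals but not named are not reported singly here.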

Additional observations from a re-analysis of the deposited data

How the results depend on the processing

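The mean difference of 17.5 members with a promoter peak kept its direction under the alternatives tried, from 14.75 to 20.25 when a library was left out, and fell to 2.25 with lists of equal length. A paired arrangement with a replicate block gave 17.5 (exact permutation p = 0.125, the smallest that 16 arrangements allow), and with the block limma called the same number of members, 17 in OVCAR-3 and 10 in Kuramochi, and 5141 and 4647 of all genes in place of 5087 and 4473. With equal lists 18 members were bound under INX-315 in OVCAR-3 (24.3% of members, 29.0% of all genes) and 13 in Kuramochi (17.6%, 25%), 2 and 1 were gained, and 46 in place of 28 had no peak. Leaving out 1 library gave 11 to 20 members bound under DMSO, 9 to 19 gained and 11 to 19 in all libraries in Kuramochi. Without DMSO replicate 1, 20 were bound (27.0% of members against 39.0% of all genes) and 19 in all libraries (25.7% against 37.9%), the highest of these counts. The most gained, 19, came without INX-315 replicate 2 (25.7% of members against 19.9% of all genes), the reverse of the order with all libraries. Without DMSO replicate 2, 17 were gained (23% against 27.0%).

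With median-centred libraries 0 members were called in either line, against 64 of all genes in OVCAR-3 and 0 in Kuramochi, with member medians of 0.21 and 0.083. Leaving out a library left 5 to 17 members called in Kuramochi, the lowest without INX-315 replicate 2, where 2416 genes were called, against up to 5582 without DMSO replicate 1. The number tested changed too, so these counts cannot be compared directly. Without INX-315 replicate 2, 10 members and 4881 genes were tested in Kuramochi, with median log2 changes of 1.48 and 1.40. Without DMSO replicate 1, 18 members and 7400 genes were tested there, with medians of 1.16 and 1.19. Member medians were lowest without DMSO replicate 1 of the line, 1.63 in OVCAR-3 and 1.16 in Kuramochi. They were highest at 2.25 without INX-315 replicate 1 in OVCAR-3 and at 1.98 without DMSO replicate 2 in Kuramochi. The cause was not tested. Beyond promoters, the members' mean share under INX-315 was 19.9%, 15.5% within 5 kb and 17.2% at a q-value of at most 0.001, against 8.69%, 7% and 6.08% of all genes. These last alternatives were chosen after seeing the data. Depth limits single genes, since many peaks rest on 10 fragments or fewer.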
